A study of Mus musculus with 24 samples.

Results

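H3K9ac, the acetylation of lysine 9 of histone H3, was compared between 4T1 spheroids in which CPT1a was knocked out and acetate was supplied and 4T1 spheroids in which KAT2a was knocked out. 4T1 is an established mouse breast cancer line that spreads to distant organs such as the lung. The members were the 6 H3K9ac peak lists that the labels assign to these groups, 3 per group, of 12 H3K9ac lists and 24 samples in the series. The question was how chromatin acetylation differs between cells that lack CPT1a but receive acetate and cells that lack an enzyme that places the acetyl group. Collection was on day 5 in both groups. The acetate group grew with 5 mM acetate, and the labels do not state palmitate for it, whereas the KAT2a knockout grew with 75 µM palmitate. The study's own account of the acetate cultures includes palmitate, so whether palmitate differed between the groups is not settled here. Genotype and acetate both differed, and their parts in any difference cannot be told apart. Both knockouts were made with lentiviral guides in 4T1 cells carrying a doxycycline-inducible Cas9 and were selected as stable puromycin-resistant lines, and nothing in the labels ties a library to 1 of the guides or tells whether replicates came from separate lines, so that p-values measure the spread between libraries. Merging the peaks of the 12 lists gave 38586 regions. At least 1 of the 6 libraries had a peak in 24772 of them, and all 6 had one in 13728. Of 21670 protein-coding genes, 10905 carried a peak within 1 kb of a transcription start site (TSS) in all 6 libraries.

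H3K9ac marks the promoters of active genes and active enhancers. KAT2a (GCN5) is the catalytic subunit of the SAGA and ATAC complexes and acetylates this residue together with its paralogue KAT2b (PCAF). The acetyl group comes from acetyl-CoA, which cells obtain from fatty acid oxidation, for which CPT1a imports long-chain acyl groups into mitochondria, from citrate through ACLY, and from acetate through ACSS2. At a promoter, the mark can vary in height at the summit and in breadth, the length of DNA around the start site that is covered. Both were examined: height by the rank of a peak's fold enrichment (summit signal over local background) within its library, and breadth by the number of bases covered by the library's peaks in the promoter region, also ranked within the library.

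The lists held 22577, 22351 and 24594 peaks with acetate and 23844, 24091 and 22640 peaks in KAT2a knockout, with means of 23174 ± 1235 and 23525 ± 776 (SD, n = 3 each, exact permutation p = 0.8). Median peak width was 902 ± 84.0 bp with acetate, against 994 ± 76.4 bp for KAT2a knockout (exact permutation p = 0.2), and the share of peaks at promoters was 56.2% ± 4.89 and 53.5% ± 4.61 (SD, n = 3, exact permutation p = 0.6). Covered length, mean GC content and calling depth gave exact permutation p of 0.6, 0.5 and 0.7. After adjustment over these 6 measures each p was 0.8, and 3 libraries against 3 cannot give a p under 0.1. Calling depth, the most frequent background pileup that a list's fold enrichments and p-values imply, was 1.45, 0.660 and 1.91 for acetate replicates 1 to 3 and 1.67, 1.81 and 1.02 for KAT2a knockout replicates 1 to 3, so acetate replicate 2 and KAT2a knockout replicate 3 were the shallow libraries. The Jaccard index, the shared length of 2 lists over the length covered by either, was 0.721 to 0.806 within acetate, 0.737 to 0.812 within KAT2a knockout and 0.676 to 0.791 between the groups, so the ranges overlapped. Of 19 epithelial and mammary markers, 13 carried a promoter peak in all 6 libraries, among them Epcam, Cdh1 (E-cadherin), Krt8 and Krt18, and 5 carried none. Of 20 fibroblast, endothelial and leukocyte markers, 18 carried no promoter peak in any of the 6 libraries. Pdgfra carried one in all 6 and Col1a1 in 2 of 3 KAT2a knockout libraries and in 0 of 3 with acetate.

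Sequences from the regions of the main differences, which were in calls or in breadth, are shown first. They are plus-strand GRCm38 sequence around the strongest summit, limited to the longest stretch without an annotated untranslated region, and capitals mark any match, on either strand, to 13 short motifs, among them the E-box (CACGTG, which contains the hypoxia response core ACGTG), the GC box (GGGCGG), the CCAAT box (CCAAT) and the AP-1 motif (TGANTCA). The first pair belongs to the strongest regions called in all KAT2a knockout libraries and in no acetate library, with summits in coding exons of Arrdc4 (chr7:68748850-68749066) and of Rasef (chr4:73790710-73790918). The next pair belongs to the promoters whose peaks were most clearly broader in KAT2a knockout, Cldn7 (chr11:69965950-69966249) and Sulf2 (chr2:166154424-166154666). The last is from the promoter domain shared by Smcr8 and Top3a (chr11:60776368-60776667), which was broader with acetate.
Arrdc4: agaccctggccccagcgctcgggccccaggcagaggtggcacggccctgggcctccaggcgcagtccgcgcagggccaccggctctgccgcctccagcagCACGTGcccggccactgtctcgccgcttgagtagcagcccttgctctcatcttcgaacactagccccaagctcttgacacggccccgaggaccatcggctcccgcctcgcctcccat
Rasef: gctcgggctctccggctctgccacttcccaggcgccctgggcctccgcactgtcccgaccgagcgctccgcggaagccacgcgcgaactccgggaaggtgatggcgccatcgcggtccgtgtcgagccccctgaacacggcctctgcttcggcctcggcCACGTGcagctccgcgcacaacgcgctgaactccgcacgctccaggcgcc
Cldn7: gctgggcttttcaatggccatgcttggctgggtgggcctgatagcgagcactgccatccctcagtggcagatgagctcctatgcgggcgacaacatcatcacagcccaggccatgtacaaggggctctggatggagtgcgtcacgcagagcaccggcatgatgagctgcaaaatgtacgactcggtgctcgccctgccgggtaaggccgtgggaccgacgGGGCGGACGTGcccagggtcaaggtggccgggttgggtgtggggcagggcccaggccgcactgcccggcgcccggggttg
Sulf2: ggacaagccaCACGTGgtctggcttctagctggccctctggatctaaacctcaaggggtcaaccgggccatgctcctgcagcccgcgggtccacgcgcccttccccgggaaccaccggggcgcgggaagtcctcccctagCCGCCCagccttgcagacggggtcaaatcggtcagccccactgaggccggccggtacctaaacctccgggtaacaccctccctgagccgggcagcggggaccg
Smcr8 and Top3a: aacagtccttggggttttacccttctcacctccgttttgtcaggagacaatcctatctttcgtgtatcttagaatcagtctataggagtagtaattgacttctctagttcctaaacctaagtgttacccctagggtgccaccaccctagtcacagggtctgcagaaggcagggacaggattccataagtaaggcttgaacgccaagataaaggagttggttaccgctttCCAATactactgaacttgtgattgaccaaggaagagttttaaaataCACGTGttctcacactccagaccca

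The Arrdc4 and Rasef stretches were rich in GC (71.0% and 72.7%) and held 18 and 29 CpG dinucleotides. The sets did not show such a contrast: median GC content of the 300 bases was 50.3% for the regions called in KAT2a knockout only, 50.8% for those called with acetate only and 53.7% for all regions. The E-box occurred in 26 of the 429 regions called in KAT2a knockout only (6.06%), in 2 of the 66 called with acetate only (3.03%) and in 4.99% of all 24772 regions, each taken as 300 bases around the strongest summit. The GC box was found in 18.9%, 13.6% and 22.8% of these sets, and AP-1 in 8.86%, 6.06% and 7.5%. Among promoter regions, the E-box was found in 7 of 41 of those of genes broader with acetate (17.1%), in 6 of 93 of those of genes broader in KAT2a knockout (6.45%) and in 5.42% of the 10784 promoter regions of all genes tested. A match to these letters is a description of the sequence and not a binding site.

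Promoter breadth differed at 109 genes of 10905 (limma, adjusted p below 0.05), which is 1% of the genes tested. Of these, 69 (0.633%) were broader in KAT2a knockout and 40 (0.367%) broader with acetate. The genes broader in KAT2a knockout had a median ratio of KAT2a knockout to acetate breadth of 1.71 (range 1.21 to 5.57), and their lengths in base pairs did not overlap between the groups at 69 of 69 genes, beside 808 of all 10905 in either direction. The genes broader with acetate had a median ratio of acetate to KAT2a knockout of 1.48 (range 1.128 to 3.15), with lengths that did not overlap at 26 of 40. Both sets were called on ranks of these same lengths, so little overlap follows from the choice. Lengths in base pairs are not scaled between libraries, and over all genes tested the median ratio of KAT2a knockout to acetate was 1.04. The 109 genes rested on 37 sets of regions broader with acetate and 67 broader in KAT2a knockout, since neighbouring genes can share a promoter domain. All 109 genes kept their direction in each fit with a library left out, but the counts moved. With acetate broader, they were 23 without acetate replicate 1, 26 without acetate replicate 3 and 26 without KAT2a knockout replicate 1. With KAT2a knockout broader, they were 31 without KAT2a knockout replicate 1 and 33 without KAT2a knockout replicate 2. With peaks within 500 bp joined, 16 genes were broader with acetate and 33 broader in KAT2a knockout. Just inside the threshold lay Ppp1r9b (adjusted p = 0.0499) and just outside it Fst and Trip4 (adjusted p = 0.0515 each).

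**Figure D1:**
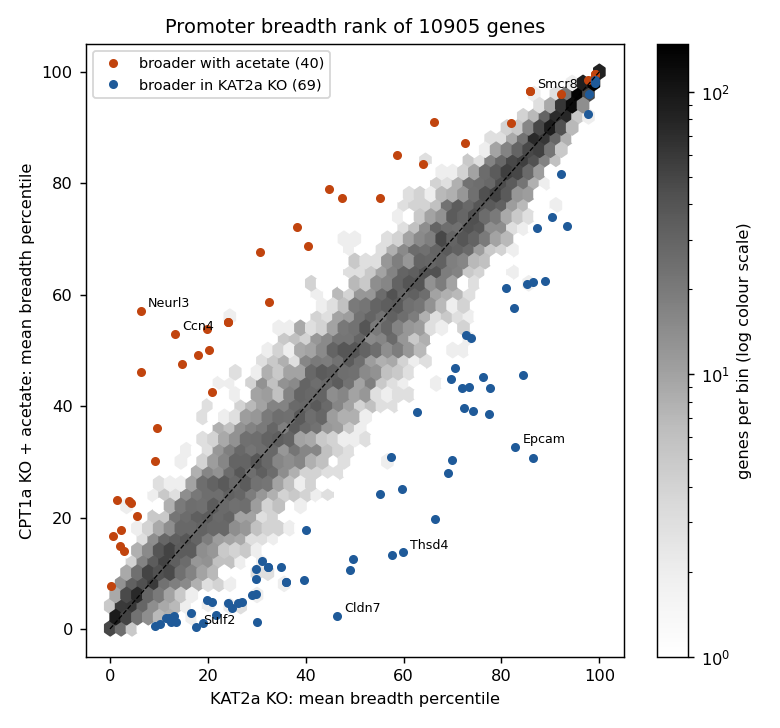
Mean percentile of promoter breadth within the library in KAT2a knockout (x axis) and in CPT1a knockout with acetate (y axis) for 10905 genes, with grey bins for all genes and coloured points for the genes past an adjusted p of 0.05. The 69 genes broader in KAT2a knockout lie below the diagonal, with Cldn7 at 46.4 against 2.41, and the 40 broader with acetate lie above it, with Neurl3 at 57.1 against 6.34.

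The strongest call was Cldn7, which encodes claudin 7, a tight junction protein of epithelia (chr11:69964779-69967885). Its promoter peaks covered 657, 567 and 780 bp in the 3 acetate libraries and 2323, 2215 and 2300 bp in the 3 KAT2a knockout libraries. Every KAT2a knockout library was broader than every acetate library, by 3.41-fold in the means (limma adjusted p = 0.000361). Sulf2, a secreted sulfatase that edits heparan sulfate, showed the largest ratio of the 109 genes: its peaks covered 317, 219 and 291 bp with acetate, against 1569, 1649 and 1391 bp in KAT2a knockout (5.57-fold, adjusted p = 0.000472). The shortest peak in any list was 200 bp, so the acetate libraries held little more than a minimal peak there. Epcam, the epithelial cell adhesion molecule that binds claudin 7, covered 1969, 1307 and 2241 bp with acetate, against 3400, 4087 and 3515 bp in KAT2a knockout (1.99-fold, adjusted p = 0.000765). Its groups did not overlap.

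Thsd4, an extracellular matrix protein that binds fibrillin, covered 1446, 941 and 1480 bp with acetate, against 3049, 2761 and 2202 bp in KAT2a knockout (2.07-fold, limma adjusted p = 0.000765). Epb41l2, a membrane-cytoskeleton linker of the protein 4.1 family, covered 3449, 2543 and 3216 bp with acetate, against 4898, 5198 and 5031 bp in KAT2a knockout (1.64-fold, adjusted p = 0.000765). At both genes the narrowest KAT2a knockout library was broader than the broadest acetate library. Other genes on this side, named after their values were seen and standing for no group, included the transcription factor genes Sox21 (3.48-fold), Cebpa (2.06-fold), Sox12 (1.93-fold) and Sox15 (1.63-fold), with adjusted p of 0.00234, 0.0074, 0.00456 and 0.0074. A transcription factor gene, Zbtb7c, was also called on the acetate side, at 1895, 1801 and 2047 bp against 1141, 1314 and 1262 bp (adjusted p = 0.0116). Ntn1, the guidance cue netrin 1 (2.52-fold, adjusted p = 0.0074), and Ephb3, an ephrin receptor (1.73-fold, adjusted p = 0.0347), were also broader in KAT2a knockout.

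On the acetate side, the clearest domain was the one shared by the divergent genes Smcr8, a partner of the C9orf72 complex in autophagy, and Top3a, a type IA topoisomerase. It covered 6776, 5680 and 6117 bp with acetate, against 4070, 4163 and 3411 bp in KAT2a knockout (1.60-fold, limma adjusted p = 0.00045). Neurl3, a ubiquitin ligase, covered 2298, 2249 and 3001 bp with acetate, against 955, 1561 and 701 bp in KAT2a knockout (2.35-fold, adjusted p = 0.000765). Ccn4 (WISP1), a matricellular protein induced by Wnt signalling, covered 2579, 1938 and 2649 bp with acetate, against 1468, 1567 and 1181 bp in KAT2a knockout (1.70-fold, adjusted p = 0.000765). The acetate libraries were broader than all KAT2a knockout libraries at each of these promoters. Camk4, a calcium and calmodulin dependent kinase, covered 1683, 1240 and 1814 bp with acetate, against 558, 719 and 724 bp in KAT2a knockout (2.37-fold, adjusted p = 0.00134).

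Other genes broader with acetate are also named after their values were seen. Genes of matrix or secreted proteins were called on both sides (Sulf2, Thsd4 and Ntn1 in KAT2a knockout), and they were not tested as a group. Spp1 (osteopontin) covered 3030, 2589 and 2962 bp with acetate, against 2164, 2156 and 1357 bp in KAT2a knockout (1.51-fold, limma adjusted p = 0.0074). The collagen gene Col5a1 was 1.43-fold broader (adjusted p = 0.0116) and Col6a1 1.54-fold (adjusted p = 0.0478). Col4a5 and Col4a6, divergent neighbours with 1 shared domain, were 1.45-fold broader (adjusted p = 0.0389). In base pairs Col5a1, at 4156, 3147 and 4093 bp with acetate, against 2507, 3276 and 2182 bp in KAT2a knockout, overlapped through acetate replicate 2, the shallowest library, while its breadth percentiles did not overlap. Gstp1, a glutathione transferase (1.47-fold, adjusted p = 0.0074), and Cyp1b1, a cytochrome P450 (1.30-fold, adjusted p = 0.0143), belonged to the same side.

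**Figure D2:**
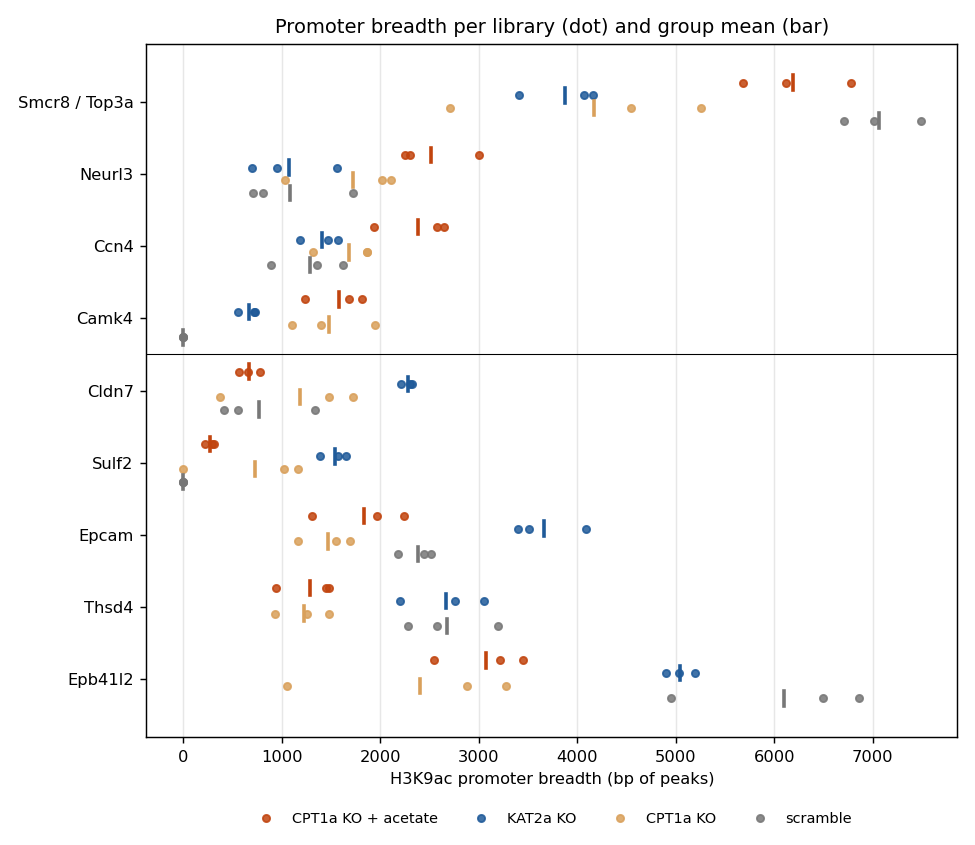
Bases of H3K9ac peaks at the promoters with the smallest p in each direction (x axis, bp), with a dot per library and a bar at the group mean, for the 2 groups compared and, for context, CPT1a knockout and scramble. Above the line, the acetate libraries are the broader of the groups compared (Neurl3 at 2249 to 3001 bp against 701 to 1561 bp), and below it the KAT2a knockout libraries are (Cldn7 at 2215 to 2323 bp against 567 to 780 bp).

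The remaining groups of the series place these genes as follows, as a description without a test. For the 69 genes broader in KAT2a knockout, the median breadth percentile was 57.5 in KAT2a knockout, 17.7 with acetate, 26.0 in CPT1a knockout without acetate and 28.9 in scramble. For the 40 genes broader with acetate it was 56.0 with acetate, 24.2 in KAT2a knockout, 46.5 in CPT1a knockout and 43.9 in scramble. The choice of genes by the first comparison sets the order of the groups compared, while CPT1a knockout and scramble were not used in the choice. The breadth percentile of Cldn7 was 19.1, 28.1 and 2.76 in CPT1a knockout and 6.65, 2.40 and 2.51 in scramble, below the lowest KAT2a knockout library at 36.0. Sulf2 and Camk4 had no promoter peak in any scramble library. The breadth percentile of Epb41l2 was 93.6, 89.3 and 94.6 in scramble and 73.2, 79.6 and 21.6 in CPT1a knockout, beside 92.5, 92.9 and 95.1 in KAT2a knockout and 78.1, 67.4 and 71.5 with acetate.

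The list of epithelial and mammary markers gave 3 of 13 tested members broader in KAT2a knockout and 0 broader with acetate, against 0.633% and 0.367% of all genes. The 3 members were Cldn7, Epcam and Cldn3. The list was chosen with earlier results of these data known, so its shares are a description and were not tested against those of all genes. Cldn3, another claudin, covered 3235, 2004 and 2926 bp with acetate, against 4219, 4036 and 3514 bp in KAT2a knockout (1.44-fold, limma adjusted p = 0.0205). The breadth percentiles did not overlap between the groups at 8 of the 13 members, higher in KAT2a knockout at 6 and higher with acetate at 2, where 8.28% and 8.59% of all genes fell in these directions, together 16.9%. The median difference in breadth over the list was -2.58 percentile points (acetate minus KAT2a knockout), beside 0.0657 over all genes tested. Cdh1 covered 2409, 1818 and 2445 bp with acetate, against 3294, 2731 and 2398 bp in KAT2a knockout, which did not pass (adjusted p = 0.24), and the promoters of Gata3, Krt18 and Krt19 did not pass either, with adjusted p of 1, 0.979 and 0.909. Krt14, a basal keratin, had no promoter peak in the acetate libraries and a peak of fold enrichment 4.40, 3.96 and 4.96 in the 3 KAT2a knockout libraries. It was called in 0 of 3 CPT1a knockout and 0 of 3 scramble libraries. Krt5 and Krt17, of the same list, had no promoter peak in any library.

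**Figure D3:**
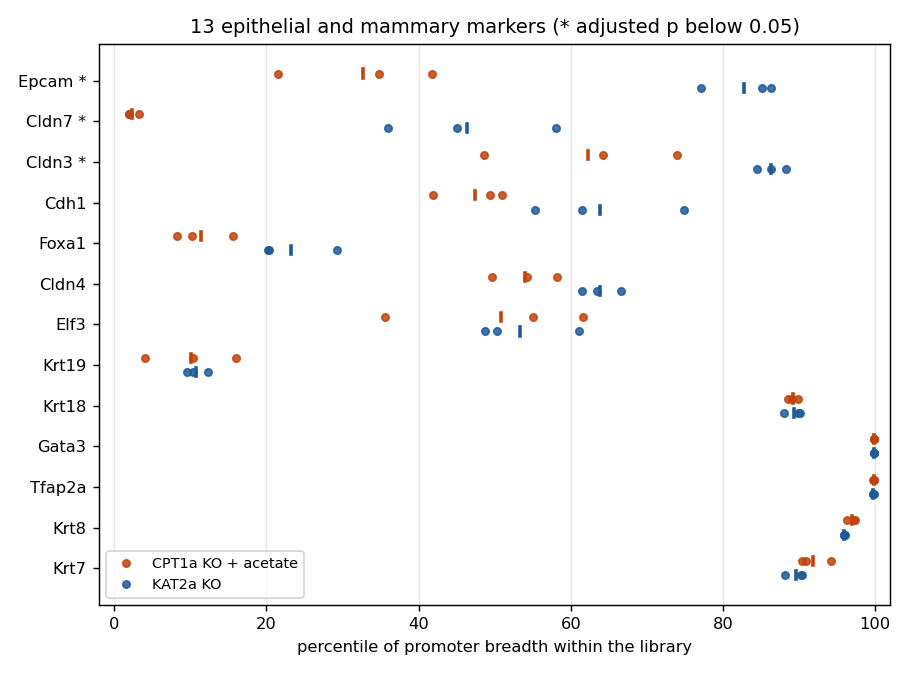
Percentile of promoter breadth within each library (x axis) for the 13 epithelial and mammary markers with a promoter peak in all 6 libraries, with a dot per library, a bar at the group mean and an asterisk at an adjusted p below 0.05. Epcam, Cldn7 and Cldn3 at the top are shifted to higher percentiles in KAT2a knockout, whereas Gata3 and Tfap2a sit at the upper end in both groups.

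The lists of enzymes and complexes around acetate and KAT2a are read beside the 1% of all genes called in breadth, at which a list of this size often has no call. Of 13 tested genes of acetyl-CoA supply, 0 passed in breadth or in fold enrichment. Acss2, which makes acetyl-CoA from acetate, covered 2456, 2053 and 2389 bp with acetate, against 2458, 2321 and 1955 bp in KAT2a knockout, and Acly covered 3162, 2762 and 3419 bp and 3240, 3820 and 2845 bp. Of 22 tested genes of the carnitine shuttle and beta-oxidation, 0 passed. Of 25 genes of the KAT2, SAGA and ATAC complexes, Tada1, an adaptor of SAGA, was broader in KAT2a knockout, at 3403, 3685 and 2462 bp against 2418, 1730 and 2227 bp (1.5-fold, limma adjusted p = 0.018). No other member of this list passed. Of 23 genes of fatty acid and sterol synthesis, Scd1, the stearoyl-CoA desaturase, was broader in KAT2a knockout, at 1694, 1987 and 1612 bp against 443, 635 and 1244 bp (2.28-fold, adjusted p = 0.0215). Of 22 genes of epithelial-mesenchymal transition, Cldn7 and Epcam, already described, were broader in KAT2a knockout; Vim (vimentin), at 6154, 5697 and 5944 bp with acetate, against 4647, 5157 and 4789 bp in KAT2a knockout, did not overlap but missed the threshold (adjusted p = 0.11).

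In the remaining lists, 0 members passed in breadth, which at 1% of all genes is not a result about any of them. These were the other lysine acetyltransferases, histone deacetylases, acetyl-lysine readers, NF-kB subunits, inhibitors and kinases (22 tested), NF-kB target genes (20 tested), AP-1 and immediate early genes, interferon response, glycolysis and hypoxia, oxidative phosphorylation, tricarboxylic acid cycle, ribosomal proteins, cell cycle, unfolded protein and heat shock response, NRF2 response, developmental transcription factors, and the fibroblast, endothelial and leukocyte markers, of which 1 was tested. Breadth percentiles did not overlap, higher with acetate and higher in KAT2a knockout, at 3 and 4 of 21 histone deacetylases and at 2 and 4 of 20 NF-kB target genes, beside 8.59% and 8.28% of all genes. In fold enrichment, 0 members of any of the 22 lists passed. The largest median differences in fold enrichment rank were -5.80 percentile points for the carnitine shuttle and beta-oxidation, 5.32 for acetyl-lysine readers and 5.27 for the NRF2 response (acetate minus KAT2a knockout), beside -0.29 over all genes. NF-kB target genes had a median difference of 3.89 points in fold enrichment rank and of 0.00229 points in breadth.

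Regions called in every library of 1 group and in no library of the other were counted next. KAT2a knockout had 429 such regions (1.73% of 24772) and acetate 66 (0.266%), a ratio of 6.5. A missing peak means that no peak passed the authors' threshold in that library, not that the mark was absent. Of the 429 regions, 117 (27.3%) lay within 1 kb of a TSS and 272 (63.4%) more than 5 kb away; of the 66, 10 (15.2%) and 40 (60.6%) did. Among all 24772 regions, 46.9% lay within 1 kb and 42.3% beyond 5 kb. Median GC content was 49.5% and 50.4% for the KAT2a knockout and acetate regions and 49.6% for all regions.

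Arrdc4, an alpha-arrestin induced by glucose, had fold enrichments of 20.0, 17.9 and 18.6 in the 3 KAT2a knockout libraries at chr7:68747993-68749447, over its start site. This region was not called in any acetate or CPT1a knockout library and was called in 2 of 3 scramble libraries. Rasef, a small GTPase of the Rab family, had fold enrichments of 15.3, 13.8 and 14.5 at chr4:73789755-73791060, and was called in 0 of 3 CPT1a knockout and 3 of 3 scramble libraries. Dmbx1, a homeobox gene, followed at 10.9, 12.4 and 10.6, and a region 28380 bp from the TSS of Sfmbt2, a Polycomb group gene, at 10.7, 9.83 and 10.9. A region 55 bp from a TSS of the receptor gene Notch3 had 10.1, 9.47 and 10.3. All but the Sfmbt2 region lay at a promoter.

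Fold enrichment is not scaled between libraries, so the values of the acetate regions are given for themselves. A region 11803 bp from Kif2a, a microtubule depolymerase, had 9.37, 6.63 and 7.91 in the 3 acetate libraries, and a region 79720 bp from Ccnl1 had 8.71, 8.11 and 6.19. Of the 5 strongest, those near a TSS were at Mmp11, the matrix metalloproteinase stromelysin 3 (6.08, 5.51 and 5.70), and Pik3r5, a regulatory subunit of PI3K gamma (5.62, 5.41 and 6.79). The Mmp11 summit also lay in an intron of Chchd10. The regions near Kif2a, Ccnl1 and Pik3r5 were also called in 3 of 3 CPT1a knockout libraries and that at Mmp11 in 1 of 3.

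Across the sets, 5 of the 429 KAT2a knockout regions (1.17%) were called in all 3 CPT1a knockout libraries and 177 (41.3%) in none, while 82 (19.1%) were called in all 3 scramble libraries and 156 (36.4%) in none. Of the 66 acetate regions, 5 (7.58%) were called in all 3 CPT1a knockout libraries and 11 (16.7%) in none, and 7 (10.6%) in all 3 scramble libraries and 33 (50%) in none. For all 24772 regions, 50.8% were called in all 3 CPT1a knockout libraries and 23.1% in none, and 59.98% in all 3 scramble libraries and 22.8% in none. Around genes with a broader promoter, a KAT2a knockout region lay within 50 kb of 8 of the 69 genes broader in KAT2a knockout (11.6%), of 2 of the 40 broader with acetate (5%) and of 3.63% of all genes tested. An acetate region lay within 50 kb of 2 of these 69 genes (2.90%), of 1 of the 40 (2.5%) and of 0.834% of all genes, so the acetate regions showed no match of direction. Among the 8 genes were Shc4, Tenm4, Sorbs2, Spns2, Ephb3 and Scd1. Some of these regions lay inside the promoter windows, as at Ephb3 (0 bp from a TSS) and Tenm4 (216 bp). Their bases count towards the breadth by which the genes were called. Part of the 8 of 69 was thus set by the choice of genes, and a match of direction cannot be read from it.

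**Figure D4:**
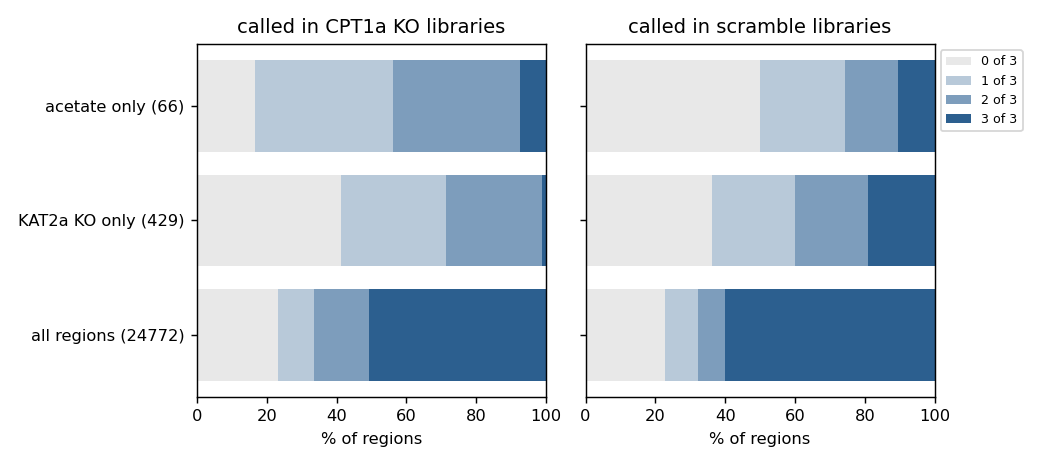
Share of regions (x axis, percent) called in 0, 1, 2 or 3 of the CPT1a knockout libraries (left) and of the scramble libraries (right), for the 66 regions called with acetate only, the 429 called in KAT2a knockout only and all 24772 regions. Of the regions called in KAT2a knockout only, 1.17% were called in all 3 CPT1a knockout libraries and 19.1% in all 3 scramble libraries.

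The ratio of these counts depended on single libraries. Without acetate replicate 2, the shallowest, the counts were 252 with acetate and 463 in KAT2a knockout. Without KAT2a knockout replicate 3, the shallow library of that group, they were 72 and 994, and without acetate replicate 3 they were 98 and 826. Leaving out acetate replicate 1 or KAT2a knockout replicates 1 or 2 gave 129, 106 and 116 acetate regions. With the other lists thinned to the calling depth of acetate replicate 2 they were 34 and 333. The thinned lists were also cut at a -log10 p of 5, a cut not applied to acetate replicate 2. KAT2a knockout had more regions in each of these settings, by 1.84-fold to 13.8-fold, and the part of depth in the difference was not tested beyond them.

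In the rank of fold enrichment, no promoter and no region passed (limma, adjusted p below 0.05, 0% in each direction). The smallest adjusted p was 0.0713 over 10905 promoters and 0.0771 over 13728 regions. At an unadjusted p below 0.05 there were 415 promoters higher with acetate and 472 higher in KAT2a knockout (8.13% of those tested), and 552 and 624 regions (8.57%). Promoter ranks did not overlap between the groups for 650 genes higher with acetate (5.96%) and 1000 higher in KAT2a knockout (9.17%), together 15.1%. Region ranks did not overlap for 890 (6.48%) and 1240 (9.03%), together 15.5%. When peaks were ranked by their -log10 p in place of fold enrichment, 30 promoters were called higher with acetate and 34 higher in KAT2a knockout, and 28 and 33 regions. Of these promoters, 10 and 12 were also called in breadth in the same direction, which is 33.3% and 35.3% of the promoters called by -log10 p and 25% and 17.4% of those called in breadth.

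The promoters with the smallest p are given by their percentile of fold enrichment, with values in each library. Fam169a ranked at 1.01, 1.07 and 2.10 with acetate and at 24.0, 24.1 and 29.8 in KAT2a knockout (unadjusted p = 6.54e-06, limma adjusted p = 0.0713). Ntn1 ranked at 1.35, 4.38 and 0.839 with acetate and at 33.9, 31.4 and 31.7 in KAT2a knockout (adjusted p = 0.0978). Both promoters were in the lowest 5% of their acetate libraries. Arfgef3 had a mean percentile of 1.81 ± 1.42 with acetate and 28.7 ± 8.60 in KAT2a knockout, and Cldn7 of 2.14 ± 1.72 and 24.97 ± 1.132 (SD, n = 3, limma adjusted p = 0.261 each). Chic2 differed at the upper end, from 81.1 ± 8.45 with acetate to 99.5 ± 0.238. Spsb4, Tmem56, Thsd4 and the pair Gm5617 and Rbm7, which share a peak, completed the 10 genes with mean differences of 12.2 to 33.8 points.

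In the opposite direction, Ggnbp2 ranked at 98.1, 93.6 and 96.9 with acetate and at 45.03, 36.0 and 50.4 in KAT2a knockout (limma adjusted p = 0.191). It had the largest difference of these genes, 52.4 points. Ncapg2, a subunit of condensin II, ranked at 99.1, 99.7 and 98.8 with acetate and at 70.0, 84.6 and 56.5 in KAT2a knockout. Il11ra1, the interleukin 11 receptor subunit, ranked at 12.3, 11.3 and 5.22 with acetate and at 0.591, 0.766 and 0.147 in KAT2a knockout. Ccn4, Slfn2, Neurl3, Blvrb and Sptbn4 (which share a peak), Col5a1 and Spp1 had mean percentiles of 10.4 to 38.2 with acetate and of 1.08 to 9.95 in KAT2a knockout (adjusted p = 0.261 each). Ccn4, Neurl3, Col5a1 and Spp1 were thus named by this rule and were also called in breadth.

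**Figure D5:**
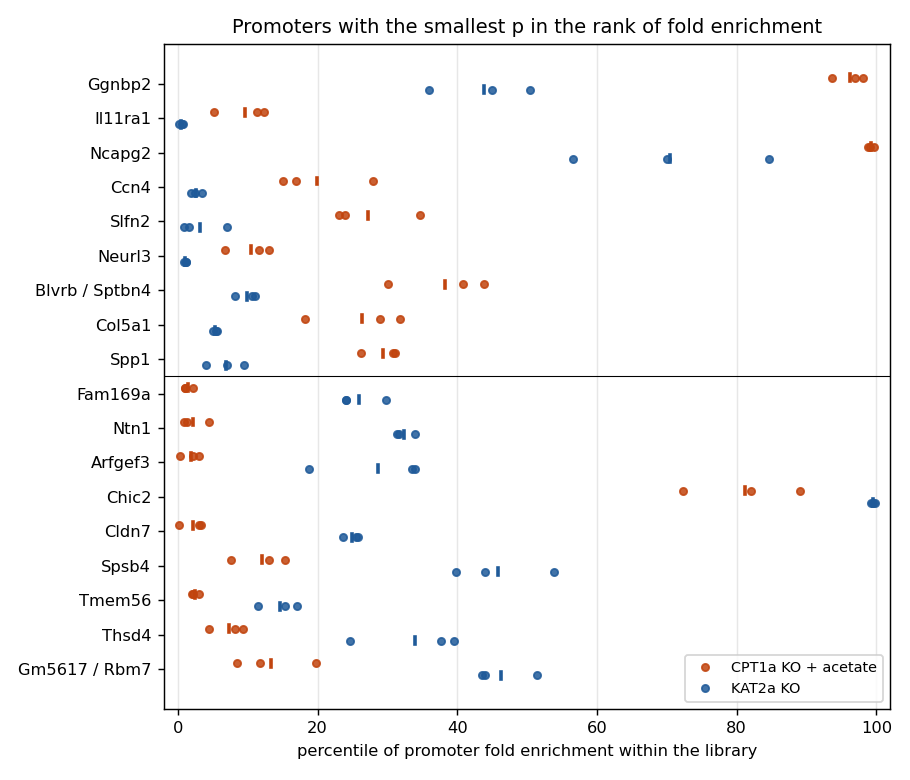
Percentile of promoter fold enrichment within each library (x axis) for the promoters with the smallest p in each direction, with a dot per library and a bar at the group mean. The promoters were chosen among those whose groups do not overlap, and the smallest adjusted p, that of Fam169a, is 0.0713.

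Height and breadth, 2 measures of the same peaks and so not independent, differed together at part of the 109 genes. Of the 69 genes broader in KAT2a knockout, 63 had a higher mean percentile of fold enrichment there and 36 had ranks that did not overlap in that direction, with 0 in the opposite direction. Over all 10905 genes, 5631 had a higher mean in KAT2a knockout and 9.17% did not overlap in that direction. Of the 40 genes broader with acetate, 34 had a higher mean percentile with acetate and 18 did not overlap, with 0 in the opposite direction, beside 5273 and 5.96% of all genes. Smcr8 and Top3a had overlapping fold enrichment percentiles, at 75.1, 74.3 and 82.9 with acetate and 71.3, 84.8 and 81.6 in KAT2a knockout.

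Among regions more than 5 kb from any TSS, the smallest p belonged to a region in an intron of Tbcd, 24740 bp from the TSS of Zfp750, an epidermal differentiation factor (chr11:121544073-121545556). Its fold enrichment ranked at 6.43, 4.77 and 3.28 with acetate and at 26.7, 27.8 and 36.6 in KAT2a knockout (limma adjusted p = 0.182). A region 96480 bp from Grhl2, a transcription factor of epithelial cells, ranked at 7.74, 9.07 and 10.8 with acetate and at 27.4, 28.3 and 38.8 in KAT2a knockout (adjusted p = 0.273). The nearest genes of the other 3 regions higher in KAT2a knockout were Grap, Epb41l4a and Nrg2. Higher with acetate were a region in an intron of Uggt1, at 49.3, 52.4 and 51.2 with acetate and 27.9, 20.2 and 22.5 in KAT2a knockout (adjusted p = 0.273), and regions nearest to Olfr1423, Abhd16b, Arl6ip5 and Rac2. The nearest gene is a position and not a target, and none of these 10 regions passed the threshold.

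The targeted genes and Rela, which encodes the NF-kB subunit p65, carried a promoter peak in all 6 libraries. The guides cut coding sequence, so a promoter mark does not check the genotype. Kat2a ranked at 27.6, 30.1 and 31.1 with acetate and at 43.7, 15.02 and 32.0 in KAT2a knockout (limma adjusted p = 0.987). Cpt1a ranked at 42.1, 59.8 and 74.3 and at 50.9, 57.8 and 57.6 (adjusted p = 0.944), and Rela at 71.4, 90.2 and 73.8 and at 84.3, 51.0 and 74.8 (adjusted p = 0.863). The ranges of the groups overlapped at each of these promoters.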

How the data were processed

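H3K9ac ChIPmentation libraries of 4T1 spheroids were analysed from the deposited peak lists. Per the labels and the study's methods, the authors trimmed and aligned the reads to mm10 (GRCm38), with BWA named in the methods and Bowtie2 in the submitters' processing notes, and called peaks per library with MACS2; versions are not given in the sources used here. The antibody catalogue number differs between the labels and the methods. The deposited fold enrichment is a ratio of summit signal to local background, the deposited -log10 p and -log10 q values are those of the authors' caller, and the deposited score was 10 times the -log10 q, rounded down, in all but 1 peak of the 6 lists. None is scaled between libraries, so ranks within a library were compared. The Drosophila spike-in named in the methods was not used here, and total H3K9ac could not be measured. The 12 input libraries were not analysed here.

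Peaks on chromosomes 1 to 19 and X were merged into regions. Promoters were windows of 1000 bp either side of protein-coding TSS (GENCODE vM21). Normal scores of ranks were tested with limma 3.58.1 (R 4.3.3, moderated test with trend) on features called in all 6 libraries, with Benjamini-Hochberg adjustment over all features. Fits were tested on simulated data. Read depth is unknown; calling depth, the most frequent background pileup, was recovered from the deposited fold enrichment and p under the MACS2 formulas, and limits which weak peaks a list can hold. The genes named were Cpt1a, Kat2a, Rela, in each direction the 10 with the smallest p in fold enrichment rank (among non-overlapping ones where none was called) and the 5 in breadth, the 5 distal regions and the 5 strongest one-sided regions. The 3 members of each list with the smallest p in fold enrichment rank, also in the rule, had no call there and are given within the list counts. Other genes were named after their values were seen. 1 of the strongest one-sided regions is not reported here. The members, the 22 lists and the 13 motifs were chosen with earlier results of these data known. Alternatives were another ranked column, GC correction, untransformed ranks, a replicate block, a fit of all 12 libraries, a stricter q, equal calling depth, joined peaks, other regions or windows, and each library left out.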

Additional observations from a re-analysis of the deposited data

How the results depend on the processing

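Breadth was refitted with the replicate block, a -log10 q of at least 5, equal calling depth, joined peaks and each library left out. Every called gene with a value kept its direction there (101 of the 109 had one at a -log10 q of at least 5, 90 at equal calling depth and 109 in the other fits), and 41 (peaks within 500 bp joined) to 85 remained called. Joining peaks gave 16 genes broader with acetate and 33 broader in KAT2a knockout, and leaving out 1 library gave 23 to 55 and 31 to 77. Same-numbered libraries did not deviate together (r of -0.0169, -0.0482 and -0.00694), and a fit with the replicate number as a block called 29 and 54 genes in breadth and 0 in ranks. Ranking by -log10 p called 28 and 33 regions and 30 and 34 promoters (acetate, then KAT2a knockout). Untransformed percentiles called 1 region and 3 promoters and GC correction 1 promoter, all higher in KAT2a knockout; the cause was not tested. Regions called with acetate only were 32 at a -log10 q of at least 5 and 34 at equal calling depth. Without 1 library they were 72 to 252, and those in KAT2a knockout only 463 to 994. With fewer libraries to separate, region ranks that did not overlap were 1501 to 1708 and 1948 to 2123.

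Differences that changed sign are acetate minus KAT2a knockout. The number of peaks differed by 219 at equal calling depth and by -1061 to 60.5 with 1 library left out. Without 1 library, calling depth differed by -0.446 to 0.178 and GC content by -0.0550 to 0.529, and the sign changed without acetate replicate 2 for all 3 and without KAT2a knockout replicate 2 for GC content. In normal scores, Cpt1a was at -0.0797 by -log10 p and at -0.113 to 0.313 without 1 library, and Rela at -0.0296 by -log10 p and at -0.0066 to 0.484 without 1 library. Kat2a was at -0.64 percentile points untransformed, and in normal scores at -0.00967 at equal calling depth and at -0.223 to 0.215 without 1 library. Read depth is unknown, a peak under the threshold is not listed, and ranks show no change shared by all regions.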
